A study of Homo sapiens with 6 samples.

Results

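The 45 genes described here encode the machinery that copies chromosomal DNA: the origin recognition complex, the factors that load and start the MCM helicase, the GINS complex, the replicative polymerases, the sliding clamp with its loader, and the proteins that coat single strands and join Okazaki fragments. They were listed by gene symbol as a functional module, with earlier results of these data known, and all 45 were found among the 18905 genes measured in a genome-wide CRISPR interference (CRISPRi) screen. Each was targeted by 5 single guide RNAs (sgRNAs) at 1 start site, which gave 225 of the 101314 targeting sgRNAs analysed, and none of the 225 was also listed under another gene. The 9 role groups into which they are ordered below held 4 to 6 genes each.

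The screen was run in HEK293-FLP cells, a human embryonic kidney line with a recombination site for transgenes. They carried DOR-MRS(WT)-APEX2, a delta opioid receptor with the C-terminal recycling sequence of the mu opioid receptor appended, fused to the peroxidase APEX2. They also carried dCas9-KRAB-BFP, a cleavage-dead Cas9 that carries the KRAB repressor. The sgRNA library was split into 3 sublibraries called H17, H23 and H456, and the 2 groups in each were the top quartile and the bottom quartile of cells sorted on APEX2 fluorescence, with 1 library per group and sublibrary and 6 libraries in all. Cells of both groups had been transduced with sgRNAs at a multiplicity of about 0.2, selected with 0.75 µg/ml puromycin, grown for 8 days, stimulated with 10 µM DADLE, an opioid peptide, for 90 min, and reacted with 100 µM Amplex UltraRed (AUR) and hydrogen peroxide, as the labels state. The methods of the study give other times for the knockdown and for the agonist. The lines were expanded from clonal populations, so the screen describes one cell background, and no library of unstimulated or unsorted cells was among the samples used here.

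Replication starts where the origin recognition complex marks DNA and, with CDC6 and CDT1, loads the ring-shaped MCM2 to MCM7 helicase. The kinase CDC7 with its activator DBF4, and the factors CDC45, GINS and MCM10, then turn the loaded ring into a moving helicase. Polymerase alpha-primase lays primers, polymerase epsilon extends the leading strand and polymerase delta the lagging strand, both held on DNA by the clamp PCNA, which the RFC complex loads, while RPA covers exposed single strands and FEN1 and LIG1 finish Okazaki fragments. Cells that lose essential parts of this machinery stall in S phase or fail to enter it.

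The measurement was the sgRNA phenotype: the share of a library's reads that an sgRNA took in the top quartile was divided by its share in the bottom quartile, and the log2 of this ratio was centred on the median nontargeting control (NTC) sgRNA. A positive value means that cells with the sgRNA were found more often among the brightest cells. The phenotype of a gene is the mean over its sgRNAs, and errors are SDs over sgRNAs, not over cultures. Quartiles were taken from the sample titles, although the letter that closes each library name stands for the other quartile. The totals ran from 23426498 to 50486627 reads per library. The member sgRNAs had between 42 and 3228 reads in a library, with a median of 874 in the top and 801 in the bottom quartile, and 570 NTC sgRNAs in H23, which held 34 of the 45 genes, had an SD of 0.28.

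CRISPRi acts at promoters, and words of E2F binding sites were more frequent in the promoters of members than in those of protein-coding genes. Of 39 members with an entry in the RefSeq promoter table (GRCh38.p14, 250 bases before to 50 bases after the start of the gene), 19 (48.7%) held at least one of 4 words known from the sites of E2F, the factor that switches on S phase genes: TTTCCCGC, TTTGGCGC, TTTCGCGC or TTTGCCGC, searched on both strands. The share was 5.40% of 15843 protein-coding genes and 3.31% of all 35116 promoter windows. The words stood in 8 of 20 DNA synthesis genes and in 11 of 19 origin and helicase genes. GINS4, POLD3, RPA2, MCM5, MCM4 and RPA3 had no entry. Shown are the promoters of a polymerase, a clamp loader and a helicase gene whose sgRNAs were all positive, and of ORC5, whose sgRNAs were all negative, each 5′ to 3′ in the direction of its gene with the words, or their other strand, in capitals. The first 3 were picked after their values were seen, from the genes with all sgRNAs positive that hold a word. RFC4, RPA1 and FEN1, whose sgRNAs were also all positive, held none of the 4 words, and neither did ORC5.
POLE4, chr2:74958393-74958692, plus strand: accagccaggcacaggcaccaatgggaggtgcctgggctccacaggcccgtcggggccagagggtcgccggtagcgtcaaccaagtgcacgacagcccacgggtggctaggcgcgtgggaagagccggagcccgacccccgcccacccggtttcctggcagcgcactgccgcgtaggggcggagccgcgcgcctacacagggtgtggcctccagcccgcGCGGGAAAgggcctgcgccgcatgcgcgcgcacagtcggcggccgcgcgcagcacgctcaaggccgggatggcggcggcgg
RFC3, chr13:33817899-33818198, plus strand: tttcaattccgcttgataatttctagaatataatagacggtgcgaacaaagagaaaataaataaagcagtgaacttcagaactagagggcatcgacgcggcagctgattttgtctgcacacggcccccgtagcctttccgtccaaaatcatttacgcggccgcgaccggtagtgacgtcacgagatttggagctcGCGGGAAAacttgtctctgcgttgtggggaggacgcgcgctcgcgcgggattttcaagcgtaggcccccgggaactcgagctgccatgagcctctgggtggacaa
MCM3, chr6:52284693-52284992, minus strand: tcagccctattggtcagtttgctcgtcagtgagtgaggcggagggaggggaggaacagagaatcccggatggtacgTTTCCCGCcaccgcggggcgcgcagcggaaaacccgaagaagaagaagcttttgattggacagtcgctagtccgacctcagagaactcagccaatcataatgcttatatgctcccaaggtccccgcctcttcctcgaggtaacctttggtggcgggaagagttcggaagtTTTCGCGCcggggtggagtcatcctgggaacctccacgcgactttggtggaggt
ORC5, chr7:104207964-104208263, minus strand: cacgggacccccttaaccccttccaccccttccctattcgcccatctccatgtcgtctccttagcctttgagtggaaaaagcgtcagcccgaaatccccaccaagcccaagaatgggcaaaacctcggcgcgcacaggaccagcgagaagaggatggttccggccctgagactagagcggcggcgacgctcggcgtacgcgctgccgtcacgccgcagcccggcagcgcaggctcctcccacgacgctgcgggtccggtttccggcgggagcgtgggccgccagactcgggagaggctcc
A match of letters is a description of the window and not a measured binding site. Among the 9 members that passed an unadjusted exact p of 0.05 upwards and had an entry, 3 held a word, against 16 of the other 30 members.

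More replication genes leaned toward the top quartile than genes in general, but none passed the adjusted threshold. With the exact Mann-Whitney test against NTC sgRNAs, 0 of 45 members had an adjusted p under 0.05, against 0.476% of all genes. This is not the threshold of the study, which joined effect size and p and was set on groups of control sgRNAs. With a minimum of 500 reads in at least one library, chosen after seeing the data, POLD3 was among the 110 of 18463 genes that passed (adjusted exact p = 0.0288). That minimum left out the POLD3 sgRNAs with main phenotypes of 0.01 and 1.39. It kept the one at 0.69 only through its 605 reads in the top quartile, against 315 in the bottom quartile. At an unadjusted exact p under 0.05, 11 of the 45 (24.4%) lay toward the top quartile, against 4.06% of all genes, and 1, ORC5, lay toward the bottom quartile, against 4.04% of all genes. The 11 were POLD2, POLD3, POLE4, RFC1, RFC3, RFC4, RFC5, MCM3, RPA1, RPA3 and FEN1. Every sgRNA was positive in 8 of the 45 genes, compared with 5.38% of all genes. The member phenotype was above 0 in 29 of 45 genes, against 50.5% of all genes, with a median of 0.06 over members and 0.00155 over all genes.

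Of the single sgRNAs against members, 143 of 225 (63.6%) had a positive phenotype, against 51.1% of all targeting sgRNAs. Of the 225, 19 (8.44%) lay above the 97.5th percentile of the NTC sgRNAs of their sublibrary, against 2.76% of all targeting sgRNAs, and 5 (2.22%) lay below the 2.5th percentile, against 2.4% of all. In H23, 10 of 34 members (29.4%) passed the unadjusted threshold upwards and none downwards, against 3.42% and 5.2% of the genes of H23. H456 held 8 members, of which RFC3 passed upwards and ORC5 downwards, against 3.5% and 4.61% of its genes. Of the 3 members in H17, CDC7, DBF4 and GINS3, none passed, against 5.34% upwards and 2.21% downwards of its genes. The plot of all members shows the values behind these counts.

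**Figure D1:**
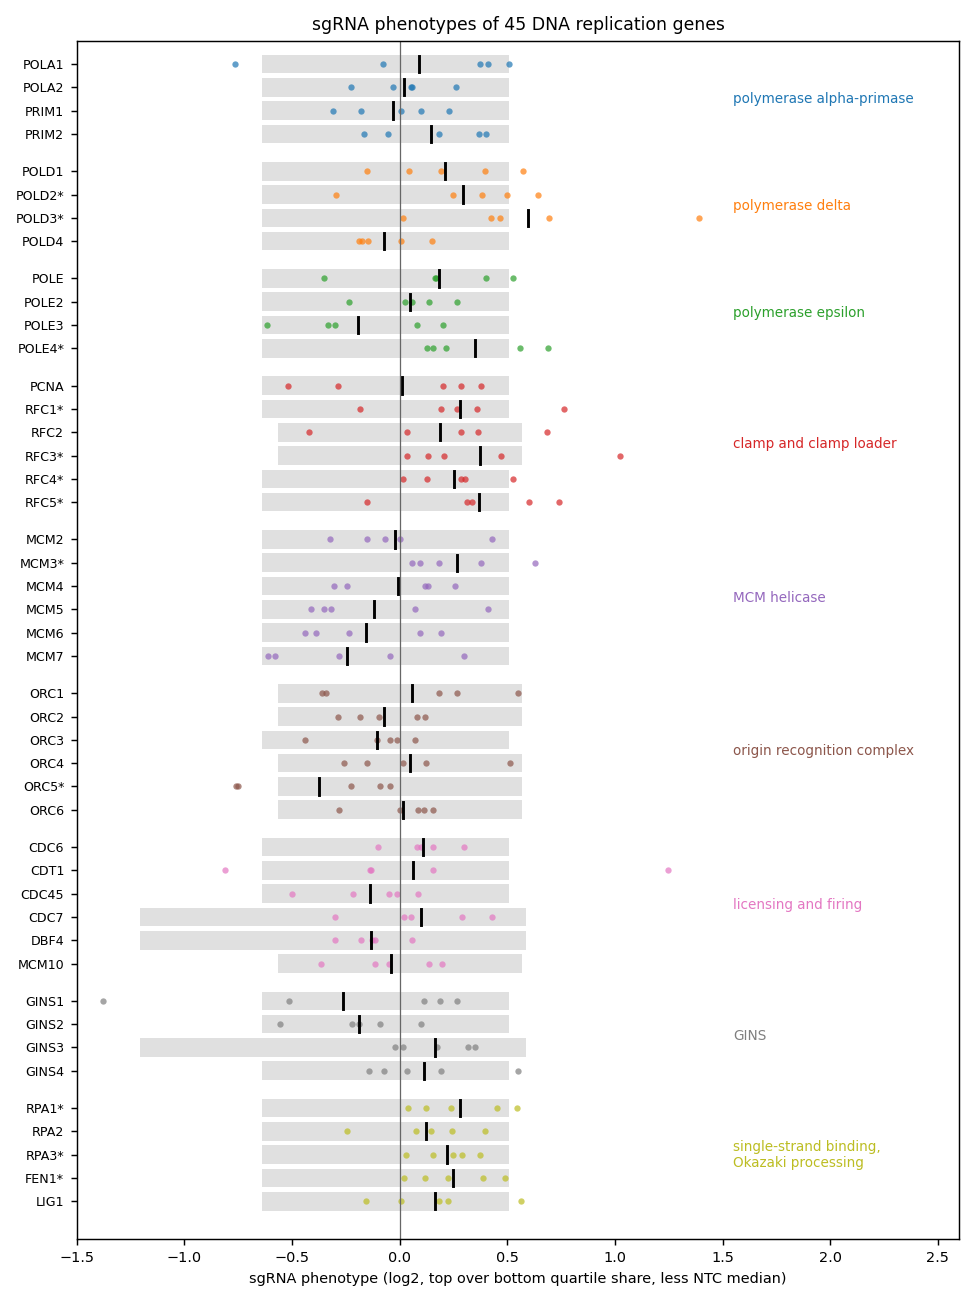
Phenotype of each sgRNA (points, log2 of top over bottom quartile, centred on the median NTC sgRNA) for the 45 members by role group, with the mean of each gene (black bars) and the span of NTC sgRNAs in its sublibrary from the 2.5th to the 97.5th percentile (gray). Asterisks mark the 12 genes with an unadjusted exact p under 0.05, of which only ORC5 lies below 0; the gray range is widest for the 3 genes of H17.

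Polymerase delta stood highest among the polymerases, and within it POLD3, a subunit that binds PCNA and also serves in break-induced replication. The 5 sgRNAs against POLD3 had 29.5, 24.0, 12.8, 6.92 and 3.57 RPM (reads scaled to the same library total) in the top quartile, against 21.8, 17.2, 7.86, 6.79 and 1.35 in the bottom quartile, in the same order. Each was thus higher in the top quartile, 4 of them by more than counting error alone, and the sgRNA with the fewest reads differed most. The phenotype was 0.60 ± 0.51 (SD over 5 sgRNAs, exact p = 0.00101, adjusted p = 0.128), or 1.51-fold, which placed POLD3 at rank 4 of 6016 genes in H23. Its sgRNA values were 0.42, 0.47, 0.69, 0.01 and 1.39.

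The catalytic subunit POLD1 had a phenotype of 0.21 ± 0.29, with 4 of 5 sgRNAs positive (exact p = 0.108). POLD2, the scaffold that links POLD1 to POLD3, reached 0.29 ± 0.36 (exact p = 0.0346), with sgRNAs at 0.38, 0.64, 0.50, 0.25 and −0.30. POLD4, the smallest subunit, lay on the other side of 0 at −0.07 ± 0.15, with 3 of 5 sgRNAs negative (exact p = 0.422). The sgRNA ranges of the 4 subunits overlapped, and differences between them were not tested.

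In polymerase epsilon, POLE4 and its histone-fold partner POLE3 lay on opposite sides of 0, a difference that was not tested. The sgRNAs against POLE4 had 17.6, 3.44, 26.4, 13.5 and 10.4 RPM in the top quartile and 15.0, 3.12, 16.2, 12 and 7.01 in the bottom quartile, so that all 5 were higher in the top quartile. The phenotype of POLE4 was 0.35 ± 0.26 (SD over 5 sgRNAs, exact p = 0.0055, adjusted p = 0.298). That of POLE3 was −0.19 ± 0.33 (exact p = 0.214), with sgRNAs from −0.61 to 0.20, which overlap the POLE4 range of 0.13 to 0.69. The catalytic subunit POLE had 0.18 ± 0.34 and the accessory subunit POLE2 0.05 ± 0.19, each with 4 of 5 sgRNAs positive and neither past the unadjusted threshold.

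The 4 genes of polymerase alpha-primase had the lowest median of the 3 polymerases, 0.06. PRIM2, the large primase subunit, was highest at 0.15 ± 0.25 (exact p = 0.215), and PRIM1, which makes the RNA primer, was lowest at −0.03 ± 0.22 (exact p = 0.796). The catalytic subunit POLA1 had 0.09 ± 0.53 and its partner POLA2 0.02 ± 0.18. The wide error of POLA1 came from 1 sgRNA at −0.76, while its highest lay at 0.51.

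**Figure D2:**
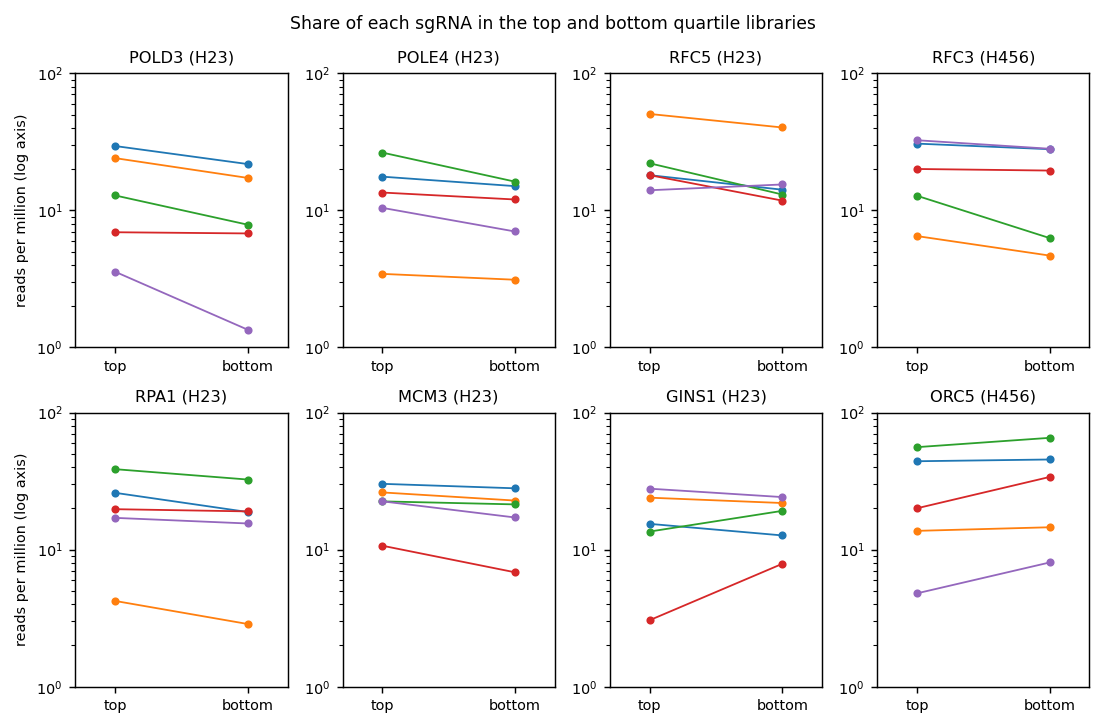
Reads of each of the 5 sgRNAs (RPM, one colour each, log axis) in the top and the bottom quartile library, for 8 members. Every sgRNA of POLD3, POLE4, RFC3, RPA1 and MCM3 is lower in the bottom quartile, whereas every sgRNA of ORC5 is higher there. In GINS1 2 of the 5 sgRNAs are higher in the bottom quartile, at 3.06 RPM in the top against 7.88 and at 13.5 against 19.2.

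The clamp loader was the group with the most members past the unadjusted threshold, 4 of 6 with PCNA counted in. RFC3, a small subunit, had sgRNAs at 30.7, 6.49, 12.8, 20.0 and 32.5 RPM in the top quartile and 27.9, 4.68, 6.28, 19.5 and 28.1 in the bottom quartile of H456. All 5 were higher in the top quartile, 1 of them by a phenotype of 1.02, and the gene reached 0.37 ± 0.40 (SD over 5 sgRNAs, exact p = 0.0143, adjusted p = 0.419). RFC5, another small subunit, had 0.37 ± 0.34 (exact p = 0.0145), with 4 sgRNAs between 0.31 and 0.74 and 1 at −0.15. RFC4 had 0.25 ± 0.19 with all 5 positive (exact p = 0.0245), and RFC1, the large subunit, had 0.28 ± 0.34 (exact p = 0.0479). RFC2, the remaining small subunit, had 0.19 ± 0.41 and did not pass (exact p = 0.174).

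PCNA itself, the ring that RFC loads, was lowest of the group at 0.01 ± 0.39 (exact p = 0.703). Its sgRNAs lay on both sides of 0, from −0.52 to 0.38. The gray range of NTC sgRNAs in H23, −0.64 to 0.51, covers all of them. The group as a whole had a median of 0.26 over 6 genes, each with a mean above 0.

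The proteins that hold and finish single strands gave smaller but even values. RPA1, the large subunit of the single-strand binding complex, had 26.0, 4.23, 38.6, 19.7 and 17.1 RPM in the top quartile and 18.8, 2.87, 32.5, 19.0 and 15.5 in the bottom quartile. All 5 sgRNAs were higher in the top quartile, and the phenotype was 0.28 ± 0.21 (SD over 5 sgRNAs, exact p = 0.0165, adjusted p = 0.451). RPA3, the smallest subunit, had 0.22 ± 0.13 (exact p = 0.0264), the smallest SD among the 11 genes, with sgRNAs from 0.03 to 0.37. RPA2 was lowest of the group at 0.12 ± 0.24, with 1 of 5 sgRNAs negative (exact p = 0.24).

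FEN1, the nuclease that trims the flap of an Okazaki fragment, had 0.25 ± 0.19 with all 5 sgRNAs positive (exact p = 0.0234). Its highest sgRNA, at 0.49, rested on 70 reads in the top and 42 in the bottom quartile, and its counting interval ran from −0.06 to 1.04. This sgRNA met the minimum of 50 reads only through the top quartile. With at least 50 reads in both libraries, or at least 100 in at least one, FEN1 did not pass the unadjusted threshold. LIG1, which seals the nick that FEN1 leaves, had 0.16 ± 0.27 with 4 of 5 positive (exact p = 0.205). The 5 genes of this group all had a mean above 0, with a median of 0.22.

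Of the 6 subunits of the MCM helicase, 5 had a mean below 0, some of them close to 0, and MCM3 was the exception. Its sgRNAs had 30.2, 26.1, 22.5, 10.7 and 22.5 RPM in the top quartile and 28.0, 22.8, 21.4, 6.84 and 17.2 in the bottom quartile, and each was higher in the top quartile. The phenotype was 0.27 ± 0.24 (SD over 5 sgRNAs, exact p = 0.0239, adjusted p = 0.5). MCM7 was lowest at −0.24 ± 0.38 (exact p = 0.126), with 4 sgRNAs from −0.61 to −0.04 and 1 at 0.30. MCM2, MCM4, MCM5 and MCM6, the other parts of the ring, ranged from −0.16 to −0.01, and none passed the unadjusted threshold. MCM4, at −0.01 with 3 of 5 sgRNAs positive, and MCM2, at −0.02, lay within counting error of 0.

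In the origin recognition complex, ORC5, an ATP-binding subunit, was the 1 member past the unadjusted threshold in the direction of the bottom quartile. Its sgRNAs had 44.1, 13.7, 55.9, 20.0 and 4.80 RPM in the top quartile of H456 and 45.5, 14.6, 65.4, 33.9 and 8.06 in the bottom quartile. All 5 were lower in the top quartile, 3 of them by more than counting error alone, at −0.76, −0.75 and −0.23, and the others at −0.09 and −0.04. The phenotype was −0.37 ± 0.35 (SD over 5 sgRNAs, exact p = 0.0109, adjusted p = 0.387), or 0.771-fold. The means of the other 5 subunits stayed close to 0, with the lowest exact p among them at 0.391. They ran from −0.11 for ORC3 to 0.06 for ORC1, which binds the origin and helps recruit CDC6. Single sgRNAs of these subunits were more spread, most in ORC1 (SD 0.40, from −0.36 to 0.55) and least in ORC2 (SD 0.17).

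The licensing and firing factors were divided evenly, with 3 genes above and 3 below 0. CDC6, the ATPase that joins the origin complex to load MCM, was highest at 0.11 ± 0.14 (exact p = 0.257), and CDC45, a part of the active helicase, was lowest at −0.14 ± 0.23 (exact p = 0.27). CDC7 and DBF4, which form one kinase, had 0.10 ± 0.28 and −0.13 ± 0.13, and MCM10 had −0.04 ± 0.22. CDT1, which brings MCM to the origin, had the most scattered sgRNAs of all members. They stood at 4.91, 5.05, 4.63, 21.4 and 28.0 RPM in the top quartile and at 2.05, 5.51, 8.03, 23.3 and 24.8 in the bottom quartile. The mean, 0.06 ± 0.75 (exact p = 0.78), hid phenotypes of 1.25, −0.14, −0.81, −0.14 and 0.16, of which the highest and the lowest both come from sgRNAs with few reads.

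The GINS complex, which joins CDC45 and MCM in the active helicase, was split as well. GINS3 had 0.17 ± 0.17 (exact p = 0.118) and GINS4 0.11 ± 0.28, whereas GINS2 had −0.19 ± 0.24 (exact p = 0.11) and GINS1 −0.27 ± 0.70 (exact p = 0.817). The GINS1 value rested largely on 1 sgRNA at −1.38, with 144 reads in the top and 316 in the bottom quartile. Another sgRNA, at −0.52, was also higher in the bottom quartile, and the other 3 were positive. Without the sgRNA at −1.38 the mean of GINS1 was 0.01, and the median over its 5 sgRNAs was 0.12.

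Set side by side, the 23 genes of DNA synthesis (polymerases, clamp and loader, RPA, FEN1 and LIG1) held 10 of the 11 genes that passed upwards, and 20 of the 23 had a mean above 0, with a median of 0.19. The 22 genes of origins and helicase (ORC, MCM, licensing and GINS) held 1 that passed upwards and 1 downwards, 9 had a mean above 0, and their median was −0.03. Over all genes, 4.06% passed upwards, 4.04% downwards and 50.5% lay above 0, and in H23 alone 3.42% passed upwards. This split was drawn after the values were seen, so it is given as a description, and the difference was not tested. The sublibraries do not divide evenly between them: 21 of the 23 synthesis genes, and 13 of the 22 others, were in H23.

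**Figure D3:**
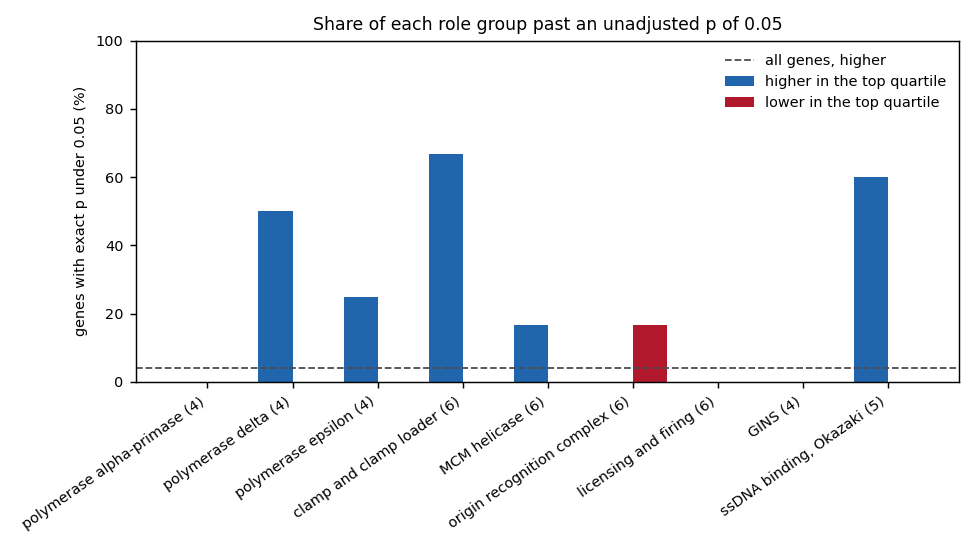
Share of the genes of each role group (percent, number of genes in parentheses) with an unadjusted exact p under 0.05, toward the top quartile (blue) and toward the bottom quartile (red), with the share of all genes toward the top quartile as a dashed line at 4.06%. The clamp and clamp loader stands at 66.7%, the single-strand binding group at 60% and polymerase delta at 50%, while 3 groups have neither bar.

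Of 64 further genes of the replication pathway on 9 lists, all measured, 7 (10.9%) passed the unadjusted threshold upwards and 1 downwards, against 4.06% and 4.04% of all genes. None passed the adjusted one, 48 lay above 0, against 50.5% of all genes, and the median phenotype was 0.10. The regulators of origin firing gave 4 of the 7 among 12 genes, of which 11 lay above 0. CDC25A, the phosphatase that activates the cyclin-dependent kinases of S phase, had 0.36 ± 0.17 (SD over 5 sgRNAs, exact p = 0.00128, adjusted p = 0.145), and DONSON, which helps assemble the helicase, had 0.36 ± 0.24 (exact p = 0.00317). CCNE1, a cyclin of S phase entry, had 0.31 ± 0.22 (exact p = 0.00747), and TOPBP1, a scaffold of firing and of checkpoint signals, had 0.28 ± 0.27 (exact p = 0.0292). All sgRNAs of these 4 genes were positive.

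Among 12 checkpoint and fork protection genes, TIPIN, which stabilises paused forks, had 0.21 ± 0.14 (exact p = 0.0325) and WDHD1, which couples the helicase to polymerase alpha, had 0.33 ± 0.35 (exact p = 0.0373). ATAD5, which takes PCNA off DNA, had 0.36 ± 0.29 over 4 sgRNAs (exact p = 0.0134) and was the 1 of 4 alternative clamp loaders to pass. POLM, a polymerase of end joining, had −0.33 ± 0.30 with all 5 sgRNAs negative (exact p = 0.0183), the 1 gene to pass downwards among 11 translesion and repair polymerases. None of 7 nucleotide supply genes, 5 histone chaperones of replication, 6 genes of mitochondrial DNA replication, 3 MCM paralogs or 4 genes of primer processing passed. The ATAD5, CDC25A and DONSON values come from H17, where the NTC sgRNAs were most spread, with an SD of 0.47 and 5.34% of all genes passing upwards.

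A second readout was the abundance of an sgRNA, the log2 of its mean share in both quartile libraries over that of the median NTC sgRNA, with the median over sgRNAs standing for the gene. Most replication genes had sgRNAs scarcer than the median NTC sgRNA. The median over members was −0.41, or 0.753 of an NTC sgRNA, and 37 of 45 members lay below 0, against 48.1% of all genes. At an unadjusted exact p under 0.05, 13 of 45 (28.9%) were scarcer than NTC sgRNAs, against 6.52% of all genes, and 1, GINS3, was more abundant, against 5.56%. No member passed the adjusted threshold, which 0.259% of all genes did. With sgRNAs of olfactory receptor genes in place of NTC sgRNAs, 28 members passed downwards and 12 passed the adjusted threshold, while 10.4576% of all genes passed downwards. The share of all genes past the adjusted threshold was not counted for that set, so the 12 have no share to be set against. In H23 that set is only 35 sgRNAs. The 366 olfactory receptor genes themselves had a median of −0.59, with 306 below 0 and 71 (19.4%) past the unadjusted threshold downwards against NTC sgRNAs. Their level differed by sublibrary, with a median of −0.61 over 342 genes in H456 and 0.60 over 7 genes in H23.

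All 13 scarce genes were in H23, where they made up 38.2% of 34 members against 4.12% of the genes. Polymerase delta was scarcest as a group, with a median of −1.17 and 3 of 4 genes past the unadjusted threshold. By gene, CDT1 was scarcest at −2.15 (exact p = 0.00632), then POLD3 at −1.44 (exact p = 0.00503), and POLE4 stood at −1.14 (exact p = 0.00144). The median was −0.59 over the H23 members, −0.39 over 37 pathway genes, −0.00245 over 83 cytosolic ribosomal proteins and −0.00646 over 39 proteasome genes of the same sublibrary. Among these, 6 pathway genes, 0 ribosomal and 3 proteasome genes passed downwards at the unadjusted exact p. The share of each sgRNA before the knockdown is unknown, and each sublibrary pools several of the original libraries, so that loss of cells and unequal starting amounts cannot be told apart.

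The phenotypes of scarce sgRNAs were more spread. In H23 the SD of the NTC phenotypes was 0.573 over 12 NTC sgRNAs with an abundance below −2, 0.454 between −2 and −1, and 0.124 over 14 with an abundance above 1. The member sgRNAs had a median phenotype of 0.16, 0.15, 0.12, 0.14, 0.06 and 0.01 in 6 bands of abundance from below −2 to between 0.5 and 1, so that it was positive in each band. The NTC sgRNAs of the lowest band also had a positive median, 0.37 over 12, above that of the 16 member sgRNAs there, while in the next 5 bands the NTC medians lay between −0.03 and 0.00846. Across the 225 member sgRNAs, phenotype and abundance had a Pearson r of −0.109 and a Spearman rho of −0.0905, and −0.0242 for r within genes. These describe sgRNAs that share genes and libraries. When only the NTC sgRNAs with an abundance below −0.5 served as comparison, 4 of the 11 genes, POLD3, POLE4, RFC3 and RFC5, kept an exact p under 0.05, with 1.80% of all genes called upwards under that choice, which was made after seeing the data.

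**Figure D4:**
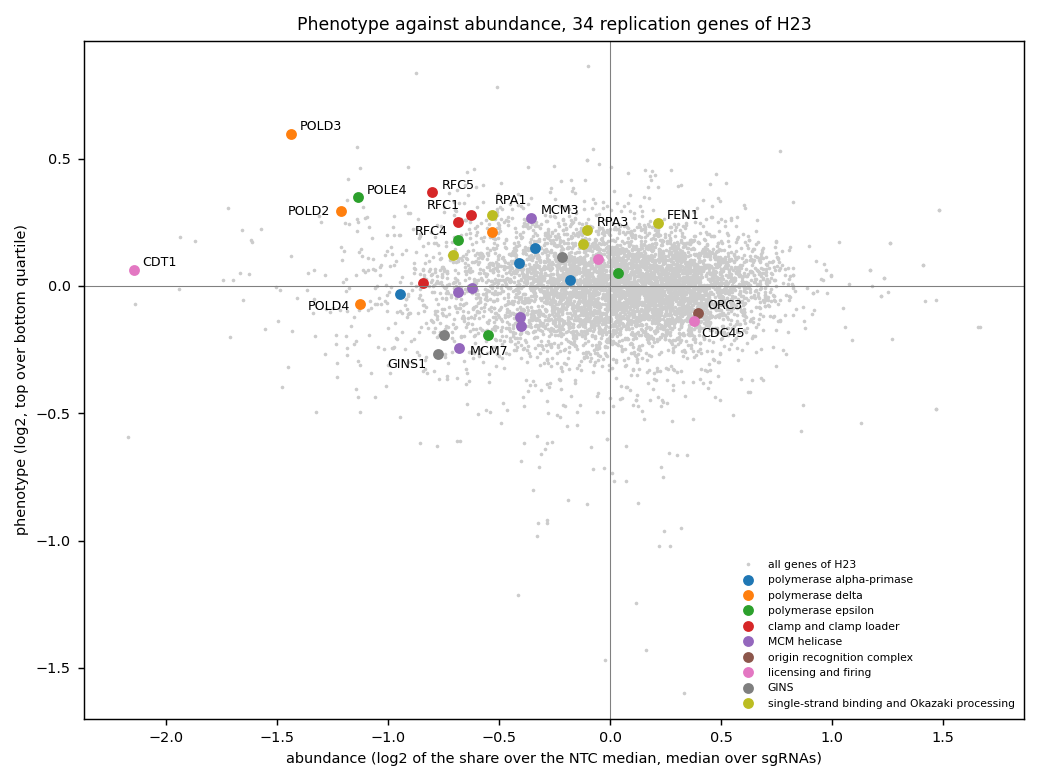
Phenotype (log2, top over bottom quartile) against abundance (log2 of the share over the median NTC sgRNA, median over sgRNAs) for the 34 members of H23 (coloured by role group) and all 6016 genes of H23 (gray). Members sit left of 0 in 30 of 34 cases, and POLD3, POLE4 and POLD2 lie at the upper left, while CDT1, the scarcest at −2.15, has a phenotype near 0.

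Leaving out the sgRNA farthest from 0 of each gene, a choice made by its value that also leaves 4 sgRNAs to test, lowered the share of all genes that passed upwards to 2.085%. POLD3 (0.40, exact p = 0.0086) and POLE4 (0.26, exact p = 0.0319) were the 2 of the 11 genes still under an exact p of 0.05, and the other 9 had means from 0.16 for RFC1 to 0.27 for RFC5. ORC5 then had −0.28 (exact p = 0.0557). The test treats sgRNAs as units, within the 2 libraries of a single sort, so its p-values say nothing of the spread between cultures. The level of knockdown was not measured here for any member.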

How the data were processed

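The authors amplified integrated sgRNAs from genomic DNA of sorted cells with 27 PCR cycles, without molecular identifiers, trimmed the reads to 38 bp and had ScreenProcessing (version 0.1) count the reads of every sgRNA, as the methods and the submitters' processing notes state. What was deposited are these counts without normalization, 209070 sgRNAs per library. The members took up 450 of these, of which 225 had reads. The genome build behind the sgRNA names was not given in the sources used, and no sgRNA coordinates are printed.

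Each gene was assigned to the sublibrary holding most of its reads, and an sgRNA was kept if either library held 50 reads of it or more. An sgRNA with a count of 0 in one library had 1 added in each. The start site with the lower p stood for a gene, with at least 2 sgRNAs. The exact two-sided Mann-Whitney U test (midranks for ties) compared its sgRNAs with the NTC sgRNAs beside them in the sublibrary, and p-values were adjusted over 18905 genes (Benjamini-Hochberg). With 1 library per group, edgeR (version 4.0.16) had no residual degrees of freedom and served only for TMM scaling. Confidence intervals of sgRNAs are at 95% and cover counting error only. Python 3.11.15, numpy 2.4.6, pandas 2.3.3, scipy 1.17.1 and R 4.3.3 were used, and the procedure was tested on simulated data.

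Members, role groups and pathway lists were chosen with earlier results of these data known. Named with full values were members with an unadjusted exact p under 0.05, the highest and lowest member of each role group, and pathway genes with an unadjusted exact p under 0.05. A further gene that the rule named is not reported here. Values of other members were added after they were seen. Alternatives covered read minimum, added counts, centring, thinning, the sgRNAs that stand for a gene and the comparison set.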

Additional observations from a re-analysis of the deposited data

How the results depend on the processing

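Of the 15 alternatives for the phenotype, 12 left between 10 and 11 members past an unadjusted exact p of 0.05 upwards, against 3.417% to 4.131% of all genes. ORC5 was the 1 downwards, against 3.814% to 4.089% of all genes, and the median over members lay between 0.05 and 0.12. Some of the 12 could not change the exact p of a member. Centring on all sgRNAs, TMM scaling and the median over sgRNAs keep the ranks, and no member had more than 1 start site or an sgRNA shared with another gene. Without the strongest sgRNA of each gene, 3 members passed upwards and 0 downwards, against 2.085% and 1.942% of all genes. Of these members, POLD3 and POLE4 were among the 11 and POLA1 was not. With 4 sgRNAs left, the test also called a smaller share of all genes. The remaining alternatives were chosen after seeing the data. With only NTC sgRNAs of low abundance as comparison, 4 members passed upwards, against 1.804% of all genes, and ORC5 passed downwards, against 1.947%. With at least 500 reads in at least one library, 9 of 44 members passed upwards, 6 of them among the 11, against 4.073% of all genes. MCM5 and ORC5 (2 genes) passed downwards, against 4.235% of all genes. POLD3 was the 1 member past an adjusted exact p of 0.05 (0.0288), where 110 of 18463 genes passed, compared with 90 of 18905 in the main setting. The cause was not tested. For POLD3 this minimum left out the sgRNAs at 0.01 and 1.39, and kept that at 0.69 only through its reads in the top quartile. POLD3 and POLE4 kept an exact p under 0.05 in all 15 alternatives, RFC5 and ORC5 in 14, and MCM3, POLD2, RFC3 and RPA3 in 13, whereas RFC1 and FEN1 kept it in 10. These counts include the alternatives that could not change the exact p of a member. Over the same alternatives, the adjusted exact p of POLD3 ran from 0.0288 to 0.86.

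For abundance, the median over members was −0.52 in the bottom quartile library alone and −0.57 with the mean over sgRNAs. When sgRNAs of olfactory receptor genes replaced the NTC sgRNAs, 28 members passed an unadjusted exact p of 0.05 downwards, 2 upwards and 12 passed the adjusted threshold, while 10.4576% of all genes passed downwards. For the upward direction and for the adjusted threshold the share of all genes was not counted with that set. In the remaining alternatives 12 or 13 members passed downwards, against 6.42% to 6.72% of all genes. No paired analysis was possible because each group had 1 library per sublibrary. Depth limits single sgRNAs more than genes: a member sgRNA with 42 reads has a wide counting interval, and no alternative replaces a second sort.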
